A study of Mus musculus with 10 samples.

Results

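Erythropoietin, the hormone that keeps erythroid precursors alive and dividing, binds a receptor encoded by Epor. The receptor carries the kinase JAK2, which phosphorylates STAT5A and STAT5B, and these then enter the nucleus and bind DNA at the letters TTCNNNGAA. CISH and SOCS3 are inhibitors induced by this signal, PIM1 is a kinase produced from a STAT5 target gene, the adaptor SH2B3 restrains JAK2, and SPRY1 restrains the Ras-MAPK branch. Chromatin accessibility around these 9 genes (Epor, Jak2, Stat5a, Stat5b, Socs3, Cish, Pim1, Sh2b3 and Spry1) was described here from peak lists. The genes were taken as the receptor, kinase and transcription factors of the pathway together with its inhibitors and targets. Every listed peak summit from 50 kb upstream to 50 kb downstream of each annotated gene span was included.

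The lists came from ATAC-seq, in which the transposase Tn5 inserts adaptors into open DNA, of mouse G1E-ER4 cells. This erythroid line derives from Gata1-null G1E cells and carries a fusion of GATA1 with the ligand-binding part of the estrogen receptor. Adding β-estradiol activates this GATA1, a transcription factor that binds GATA sequences. Cells were untreated (0 h) or held for 2, 6, 12 or 24 h in 1e-07 M β-estradiol, with 2 libraries per time point, 10 in all. All groups were grown in 15% FBS with 50 ng/mL stem cell factor and 2 U/ml recombinant human erythropoietin, so the hormone was present at every time point, 0 h included. The study describes the replicates as independent experiments, and the line is a single subclone. Each list held the summits called in 1 library with a score, the −log10 q-value in that library.

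Summits extended by 250 bp and merged over the 10 lists gave 69 distinct regions in the 9 windows, of 28981 regions genome-wide, and 8 of the 69 lay in both the Stat5a and the Stat5b window because these genes are neighbours. Regions are named here by the distance of their midpoint from the most upstream protein-coding start of the gene, with + for downstream. A region counted as a promoter region where a summit lay within 1 kb of such a start. Score levels are given as percentiles within the library's own list, where 100 is the highest score, because scores are not scaled between libraries. A percentile also depends on how many peaks its list holds, so a difference between libraries need not be a difference in accessibility. Because sequencing depth is unknown, an unlisted region was not called and need not be closed. The lists held 10698 to 19859 peaks, the shortest being 24 h replicate 2 and the longest 6 h replicate 2, and these libraries also had the fewest (26) and the most (52) of the 69 regions. At their promoters, 7 of the 9 annotated erythroid markers (Epor among them) were listed in at least 1 library, but only Tfrc in all 10, and Alas2 and Hba-a1 in none. The markers of B cells, macrophages, neutrophils and hepatocytes, 4 for each, were listed at no promoter in any library, while of the 4 T cell markers Lck was listed in 3 libraries and Cd3e, Cd3g and Cd4 in none, and of the 4 progenitor and mast cell markers Kit was listed in 9 and Gata2, Cpa3 and Ms4a2 in none.

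The sequences below come from regions described in the rest of the text. The first pair comes from the region at the start of Cish and holds 4 STAT-type matches, and the third sequence holds the match at Socs3. The capitals mark TTCNNNGAA, the stretches are on the plus strand of mm10, and they span chr9:107296654-107296683, chr9:107296762-107296791 and chr11:117969507-117969525.
Cish +0.6 kb, upstream pair: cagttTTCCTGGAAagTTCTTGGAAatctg
Cish +0.6 kb, downstream pair: ggTTCTAGGAAgatgaggcTTCCGGGAAgg
Socs3 -0.4 kb: ctcccTTCTAAGAAggctg

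The next sequences are the central 300 bases of regions that were gained or lost or that lie just upstream of Cish. Capitals mark AGATAA or TGATAA, or their reverse complements TTATCT and TTATCA, letters that GATA factors can bind. Other letters around GATA were not searched for and are unmarked, so the counts cover these letters alone. All are given on the plus strand of mm10. Stat5a +32.3 kb (chr11:100891516-100891815, in an intron of Stat3) was missing at 24 h, Stat5a +6.4 kb (chr11:100865646-100865945, in an intron of Stat5a) was also missing at 24 h, Pim1 -43.3 kb (chr17:29447259-29447558, in an intron of the non-coding genes AC163629.2 and Gm26885) was gained at 6, 12 and 24 h, Socs3 -19.0 kb (chr11:117987996-117988295, in an intron of Pgs1) was listed only at 2 and 6 h, and Cish -0.3 kb (chr9:107295623-107295922) lies in the Cish promoter region and in an intron of Gm17040.
Stat5a +32.3 kb: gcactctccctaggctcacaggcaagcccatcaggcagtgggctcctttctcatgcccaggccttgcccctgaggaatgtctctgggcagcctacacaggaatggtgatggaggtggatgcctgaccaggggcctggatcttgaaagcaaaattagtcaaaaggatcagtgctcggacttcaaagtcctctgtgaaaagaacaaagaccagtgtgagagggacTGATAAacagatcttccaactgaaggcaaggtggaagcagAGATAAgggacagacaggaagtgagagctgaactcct
Stat5a +6.4 kb: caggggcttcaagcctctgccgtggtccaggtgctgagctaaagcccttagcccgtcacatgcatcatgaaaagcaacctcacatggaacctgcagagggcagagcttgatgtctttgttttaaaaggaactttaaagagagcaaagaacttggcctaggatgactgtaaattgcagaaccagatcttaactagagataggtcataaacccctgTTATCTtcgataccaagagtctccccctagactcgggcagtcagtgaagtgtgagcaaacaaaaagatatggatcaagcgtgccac
Pim1 -43.3 kb: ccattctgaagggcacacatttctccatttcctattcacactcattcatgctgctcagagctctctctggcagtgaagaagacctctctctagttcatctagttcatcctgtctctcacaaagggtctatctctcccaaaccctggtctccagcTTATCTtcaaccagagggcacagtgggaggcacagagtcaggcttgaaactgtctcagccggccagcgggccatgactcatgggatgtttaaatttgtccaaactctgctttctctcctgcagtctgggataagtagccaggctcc
Socs3 -19.0 kb: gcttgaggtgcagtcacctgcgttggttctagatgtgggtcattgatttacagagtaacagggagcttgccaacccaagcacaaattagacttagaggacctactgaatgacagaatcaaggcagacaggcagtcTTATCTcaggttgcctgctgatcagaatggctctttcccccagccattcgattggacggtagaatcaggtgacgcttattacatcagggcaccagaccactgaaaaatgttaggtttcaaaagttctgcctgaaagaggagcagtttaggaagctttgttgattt
Cish -0.3 kb: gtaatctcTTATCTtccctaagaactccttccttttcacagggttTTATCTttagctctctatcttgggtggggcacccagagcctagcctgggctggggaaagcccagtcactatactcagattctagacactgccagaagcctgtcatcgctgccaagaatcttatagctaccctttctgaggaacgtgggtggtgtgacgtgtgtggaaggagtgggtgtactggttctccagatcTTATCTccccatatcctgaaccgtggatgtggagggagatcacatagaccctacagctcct

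Promoter regions of these genes were mostly listed throughout the time course, whereas distal regions were listed in fewer libraries. Of 11 promoter regions, 7 were listed in all 10 libraries, at Epor, Stat5a, Socs3, Cish, Pim1, Sh2b3 and Spry1. In lists of equal size those of Socs3, Pim1 and Sh2b3 remained in all 10, and the others were in 8 or 9. A further 16 regions were promoters of other genes in the windows, of which 9 were in all 10 libraries. None of the 42 distal regions was in all 10 libraries, compared with 6.69% of the 19298 distal regions genome-wide. Among all promoter regions, 51.0% were in every library. The distal regions of the 9 genes were nevertheless listed in a median of 3 libraries against 2 for all distal regions, and 12 of the 42 (28.6%) were seen in a single library, next to 39.2% of all distal regions. This left 16 of 69 regions (23.2%) in every library, next to 21.5% of all regions.

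At Epor, the receptor gene, the region at +1.0 kb (chr9:21962104-21962903) was listed in all 10 libraries. Its 10 summits lay 853 to 1152 bp downstream of the start, all 10 in the first intron of the full-length transcript (between the exon edges at positions 21963317 and 21962336), where a shorter transcript has a 5′ UTR under the region's midpoint, and in 1 library (2 h replicate 2) the summit fell beyond 1 kb. The score percentiles were 92.6 and 65.9 at 0 h, 48.1 and 47.3 after 2 h, 17.1 and 87.8 at 6 h, 68.1 and 89.7 after 12 h, and 80.7 and 90.2 at 24 h (replicates 1 and 2). Both 2 h values lay under both 0 h and both 24 h values, but the 6 h replicates spanned nearly the whole range, and the mean over the libraries was 68.7 ± 24.8 (SD, n = 10).

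For Jak2, the kinase gene, the promoter region at -0.2 kb (chr19:29251057-29252172) was listed in 8 libraries and was missing from 2 h replicate 1 and 24 h replicate 2. Its percentiles were 32.9 and 11.7 at 0 h, 2.64 in the 2 h library that listed it, 47.8 and 42.4 at 6 h, 19.6 and 54.9 after 12 h, and 73.6 in the 24 h library that listed it. Both 6 h values were above both 0 h values, and the 12 h values overlapped them.

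Between the neighbouring STAT5 genes, the Stat5a promoter region was the more regularly listed. Stat5a +1.1 kb (chr11:100860079-100860844, over a 5′ UTR of Stat5a) was in all 10 libraries, with percentiles of 54.8 and 38.7 at 0 h, 51.8 and 22.9 after 2 h, 79.5 and 75.4 at 6 h, 45.8 and 54.2 after 12 h, and 63.1 and 26.6 at 24 h. Both 6 h libraries were higher than the other 8. Stat5b +0.3 kb (chr11:100850133-100850721) was listed in 3 libraries, at the 53.9 percentile in 0 h replicate 1 and at 19.5 and 56.9 at 6 h, so 6 h was the only time point at which both libraries called the Stat5b promoter. In lists of equal size it was called in 1 library of 6 h and 1 of 0 h.

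The inhibitor genes Socs3 and Cish held STAT-type matches in their promoter regions. Socs3 -0.4 kb (chr11:117968853-117970307) was in all 10 libraries, at percentiles of 68.8 and 9.37 at 0 h, 64.3 and 62.6 after 2 h, 50.0 and 60.2 at 6 h, 76.0 and 60.7 after 12 h, and 70.6 and 29.6 at 24 h. The replicates at 0 h and at 24 h differed more from each other than the means of the time points did. Cish +0.6 kb (chr9:107296246-107297070, over a 5′ UTR of Cish) was also in all 10, at 39.0 and 53.7 at 0 h, 65.2 and 68.2 after 2 h, 0.528 and 58.9 at 6 h, 26.0 and 53.6 after 12 h, and 48.1 and 42.0 at 24 h. Here both 2 h libraries stood above the other 8.

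Just upstream, Cish -0.3 kb (chr9:107295416-107296129), with its 3 GATA matches, was listed in 9 libraries and was missing from 24 h replicate 1. Its percentiles were 47.5 and 8.57 at 0 h, 86.0 and 60.9 after 2 h, 74.0 and 64.8 at 6 h, 32.0 and 67.1 after 12 h, and 2.29 in 24 h replicate 2. The 2 and 6 h values all exceeded both 0 h values, and the only 24 h value was the lowest of the 9.

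Pim1 -0.2 kb (chr17:29490231-29490863) and Sh2b3 -0.3 kb (chr5:121836727-121837665) had the highest mean percentiles among the promoter regions, and both were separated by replicate number rather than by time. Pim1 -0.2 kb was at 69.2, 73.8, 66.3, 73.6 and 82.8 in the replicate 1 libraries of 0, 2, 6, 12 and 24 h, and at 93.3, 92.5, 94.3, 95.2 and 93.6 in the replicate 2 libraries. Sh2b3 -0.3 kb was at 73.8, 59.9, 77.1, 66.8 and 62.4 in replicate 1 and at 88.9, 95.7, 95.7, 90.4 and 86.9 in replicate 2. In both, every replicate 2 library ranked above every replicate 1 library, which was true of 3.06% of the 6234 regions in all libraries, and the reverse was true of 2.58% and of none of the 16 regions in these windows. What distinguishes the replicate numbers is not stated in the labels, and the part of a technical difference in these values was not tested.

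Spry1 0.0 kb (chr3:37639608-37640224), at the start of the MAPK inhibitor gene, was in all 10 libraries, at percentiles of 32.5 and 39.2 at 0 h, 81.6 and 71.4 after 2 h, 70.5 and 62.0 at 6 h, 21.3 and 73.0 after 12 h, and 66.2 and 46.5 at 24 h. The values of 2, 6 and 24 h were all above both 0 h values, and the 12 h replicates fell on either side of them. A second region, Spry1 +1.1 kb, was listed in 2 libraries (12 h replicate 1 and 24 h replicate 2).

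Over the 10 libraries, the order of mean percentiles was Pim1 (83.5 ± 11.7, SD), Sh2b3 (79.8 ± 13.6), Epor (68.7 ± 24.8), Spry1 (56.4 ± 20.2), Socs3 (55.2 ± 20.6), Stat5a (51.3 ± 18.7) and Cish +0.6 kb (45.5 ± 20.2). Each step between neighbours in this order was smaller than the SDs of the regions it separates.

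**Figure D1:**
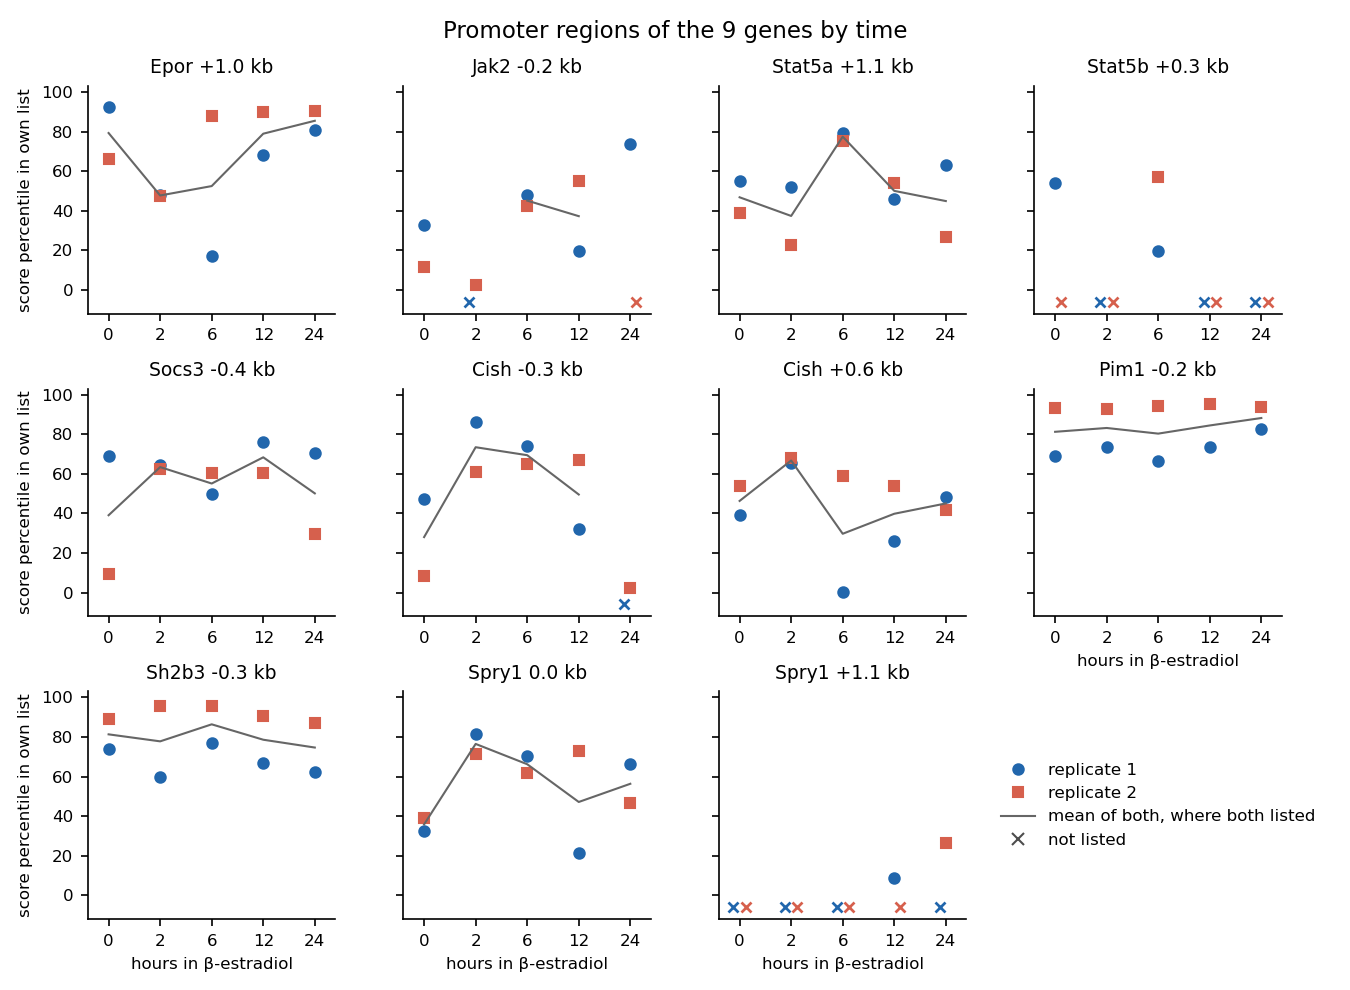
Score percentile within the library's own list (y axis) against hours in β-estradiol (x axis, time points evenly spaced) for the 11 promoter regions of the 9 genes. Circles and squares are replicates 1 and 2, lines join the mean of both replicates where both listed the region, and crosses at the foot mark libraries without it. Pim1 and Sh2b3 show all 5 replicate 2 libraries above all 5 replicate 1 libraries, and Stat5b shows crosses in 7 libraries.

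The score ranks of the 16 regions listed in every library were tested in limma together with all 6234 such regions, on normal scores of the rank. Between 12 and 24 h and 0 and 2 h no region was called at a Benjamini-Hochberg adjusted p of 0.05, 0% of regions higher and 0% lower, and none of the 16 was among the 240 regions (3.85%) with an unadjusted p under 0.05. Between 24 and 0 h again 0% were called higher and 0% lower, and 260 regions (4.17%) had an unadjusted p under 0.05. The smallest limma adjusted p over all regions was 0.999 in the first contrast and 0.607 in the second. On the normal-score scale the first contrast gave differences (12 and 24 h minus 0 and 2 h) of 0.73 ± 0.50 (SE) at Epor, 0.32 ± 0.44 at Socs3, 0.25 ± 0.50 at Pim1, 0.20 ± 0.39 at Stat5a, -0.14 ± 0.44 at Spry1, -0.16 ± 0.52 at Sh2b3 and -0.42 ± 0.45 at Cish +0.6 kb.

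One of the 16 regions had an unadjusted p under 0.05 in the contrast of 24 with 0 h. This was Epor +36.0 kb, the shared promoter of Ccdc159 and Tmem205 in the Epor window, with a difference of 1.51 ± 0.60 (SE) and limma p of 0.0231 before and 1 after adjustment. Its percentiles were 29.5 and 27.7 at 0 h, 82.6 and 65.7 after 2 h, 59.2 and 63.0 at 6 h, 84.6 and 47.2 after 12 h, and 83.6 and 63.5 at 24 h. Both 0 h libraries were below the other 8, and the region was singled out after its values were seen.

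A region was called gained if it was listed by both libraries of a time point and absent from both 0 h lists, and lost if the reverse held. With 2 libraries against 2 an exact permutation test cannot go below p = 0.333, so the counts are set beside the share of all 28981 regions meeting the same rule. At 2 h, 3 of the 69 regions were gained (4.35%; all regions 2.67%) and 1 was lost (1.45%; all regions 1.15%). At 6 h, 8 were gained (11.6%; all regions 4.08%) and 1 was lost (1.45%; all regions 0.759%). At 12 h, 1 was gained (1.45%; all regions 2.47%) and 2 were lost (2.90%; all regions 1.88%), and at 24 h 2 were gained (2.90%; all regions 1.71%) and 2 were lost (2.90%; all regions 3.51%).

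The count at 6 h exceeded the background most, and the 6 h pair holds the longest list. When every list was reduced to its 10698 highest-scoring peaks, 2 of 58 regions (3.45%) were gained at 6 h against 2.20% of all regions. The calls at the 4 time points share their 0 h libraries. In all, 14 of the 69 regions (20.3%) were gained or lost at some time point, next to 12.1% of all regions. Of these, 11 were distal, 3 were promoters of other genes and none was a promoter region of the 9 genes. Genome-wide, 2834 of the 3499 regions gained or lost at some time point were distal, among 19298 distal and 9683 promoter regions. With only 11 promoter regions, their absence from the 14 is not read as a trait of the 9 genes. In lists of equal size, however, Jak2 -0.2 kb was lost at 2 h, as it was among scores of at least 3, where Cish -0.3 kb was also lost at 24 h. Of the 14 regions, the calls at Pim1 -43.3 kb and at the Stat5a regions described next were the ones that remained at some time point in lists of equal size, and the other 11 were called there at none.

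**Figure D2:**
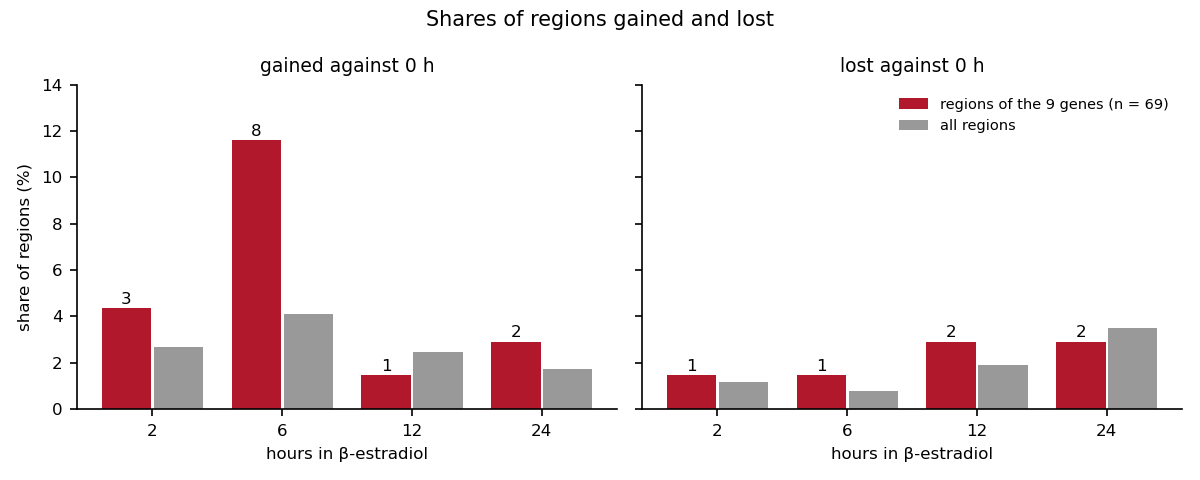
Share of regions gained (left) and lost (right) against 0 h, in percent (y axis), by hours in β-estradiol (x axis), for the 69 regions of the 9 genes (red, with the number of regions above each bar) and for all 28981 regions (grey). The widest gap is at 6 h, where 8 regions of the 9 genes were gained (11.6%) against 4.08% of all regions.

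The regions lost at 24 h both lay in the windows of Stat5a and Stat5b. Stat5a +32.3 kb (chr11:100891251-100892079) was listed in all 8 libraries of 0 to 12 h, at percentiles of 66.8 and 42.5 at 0 h, 31.0 and 46.0 after 2 h, 14.5 and 32.3 at 6 h, and 43.1 and 16.8 after 12 h, and in neither 24 h library. Both 6 h percentiles were already below both 0 h percentiles, while the 2 and 12 h values overlapped those of 0 h. This pattern, chosen after the values were seen, held for 0.362% of all regions (105 regions) and for 1 of the 69.

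Stat5a +6.4 kb (chr11:100865441-100866150) was at 69.2 and 60.3 at 0 h, 68.9 and 52.8 after 2 h, 28.2 in 6 h replicate 2, and 6.69 and 41.9 after 12 h, and it was missing from 6 h replicate 1 and from both 24 h libraries. All 4 libraries of 0 and 2 h stood above the 3 later libraries that listed it. The 24 h lists held 15573 and 10698 peaks and the 0 h lists 15258 and 11698, and the part of list length in these losses was not tested beyond the lists of equal size. Both regions were also lost at 24 h among scores of at least 3 and in lists of equal size, but in the latter both were called lost at 6 h as well. There Stat5a +32.3 kb was listed in 2, 1, 0, 1 and 0 libraries and Stat5a +6.4 kb in 2, 2, 0, 1 and 0 libraries of 0, 2, 6, 12 and 24 h, so the listing through 12 h did not hold. Stat5a +6.4 kb and Stat5a +32.3 kb also lie 15.1 and 40.9 kb upstream of the Stat5b start, and the latter lies in an intron of Stat3. The data do not say to which gene a region belongs.

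**Figure D3:**
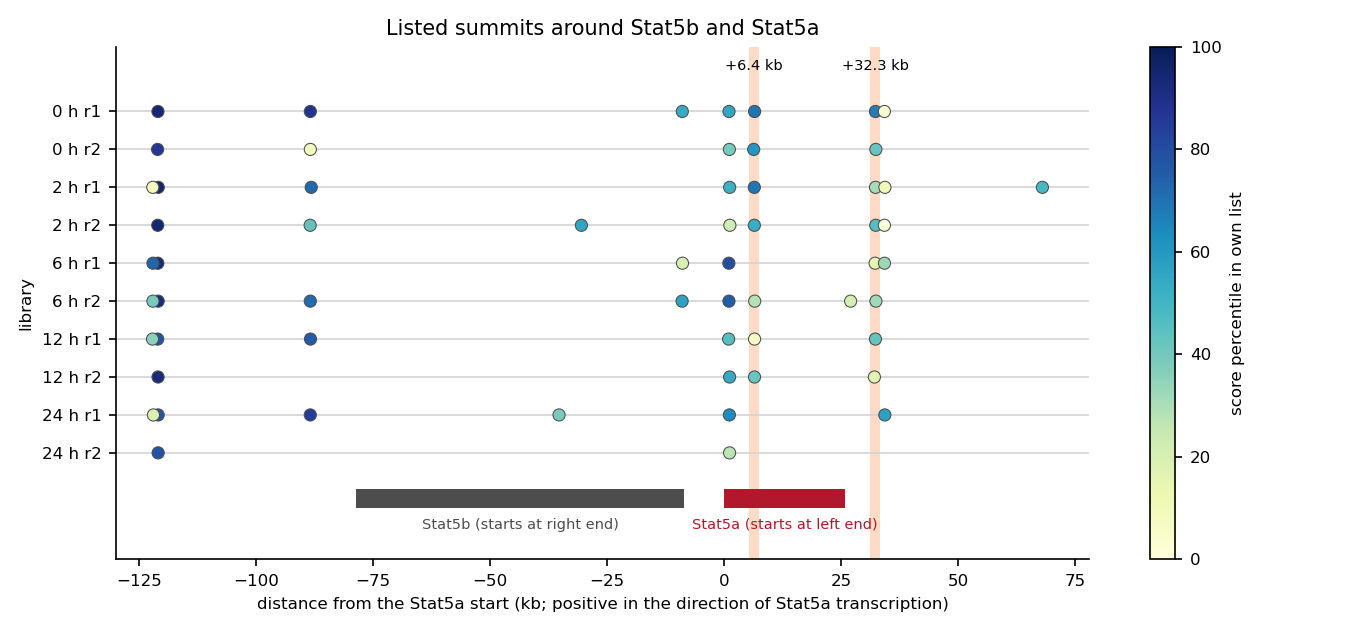
Listed summits in the Stat5a and Stat5b windows by distance from the Stat5a start in kb (x axis), with 1 row per library (y axis) and the score percentile as colour. Bars show the gene spans, and the shaded bands mark Stat5a +6.4 kb and Stat5a +32.3 kb, where both 24 h rows are empty, whereas the Stat5a promoter at +1.1 kb is filled in all 10 rows.

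Of the gained regions, Pim1 -43.3 kb (chr17:29447052-29447765) was called at the most time points, 6, 12 and 24 h. It was missing from both 0 h libraries and 2 h replicate 2, was at the 0.379 percentile in 2 h replicate 1, and was then at 47.3 and 69.3 at 6 h, 22.4 and 55.5 after 12 h, and 54.4 and 72.9 at 24 h. All 6 later libraries stood above the only earlier one that listed it. Listing in neither 0 h library and in all 6 libraries of 6 to 24 h, a pattern chosen after the values were seen, held for 0.373% of all regions (108 regions) and for this 1 of the 69. In lists of equal size it was still gained at 6 and at 24 h. Nearby, Pim1 -45.5 kb was gained at 6 h at percentiles of 12.9 and 12.4 and was otherwise listed in 2 h replicate 2 alone. Pim1 -12.3 kb was lost at 12 h only, having been at 20.1 and 3.21 at 0 h, and was listed again in both 24 h libraries at 17.1 and 9.23.

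Around Socs3, 3 regions were gained or lost, all in or beside the upstream gene Pgs1. Socs3 -19.0 kb was gained at 2 h, at percentiles of 28.7 and 3.80, and at 6 h, at 24.8 and 6.68, and was missing from the other 6 libraries. Socs3 -17.7 kb, at the Pgs1 promoter, was lost at 2, 6 and 12 h. It was at 27.7 and 31.5 at 0 h and was listed again in 24 h replicate 1 at 29.3. These neighbouring regions thus took opposite courses at 2 and 6 h, and when summits were extended by 500 bp they merged into 1 region that was lost at 12 h only.

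Farther upstream, Socs3 -31.7 kb was gained at 6 h, at 21.2 and 61.4, and at 24 h, at 21.1 and 25.8. It was also listed in 12 h replicate 1 at 31.5 and in no library of 0 and 2 h. All 5 percentiles except the 61.4 of 6 h replicate 2 were in the lower part of their lists.

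At Cish, Cish -35.0 kb and Cish -34.0 kb, both in introns of Mapkapk3, were gained at 6 h. The first was at 22.9 and 36.1 and the second at 1.56 and 5.35, the latter among the lowest scores of their lists. Cish -35.0 kb was also listed in 2 h replicate 1 (59.6) and 24 h replicate 1 (17.1), and Cish -34.0 kb in 12 h replicate 1 (38.4).

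The remaining gains were single. Jak2 -48.3 kb, in intergenic DNA, was gained at 6 h at 54.2 and 41.5 and was otherwise listed in 24 h replicate 1 (48.7). Stat5b +113.5 kb, at the promoter of Rab5c, was gained at 6 h at 73.3 and 38.7. Sh2b3 -6.1 kb, at 10.7 and 9.78, and Sh2b3 -11.4 kb at the Pheta1 promoter, at 22.7 and 13.2, were gained at 2 h. Stat5b +113.5 kb was also listed in 1 library each of 2, 12 and 24 h, and Sh2b3 -6.1 kb in 6 h replicate 2, where its percentile of 59.8 was far above both 2 h values. Sh2b3 -11.4 kb was also listed in 1 library each of 6, 12 and 24 h. The gains at Rab5c and Pheta1 each lay beside another promoter region of the same gene that both 0 h libraries listed. That neighbour was listed in all 10 libraries at Rab5c and in 9 at Pheta1. When summits were extended by 500 bp, each gained region merged with its neighbour, and neither gain remained.

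**Figure D4:**
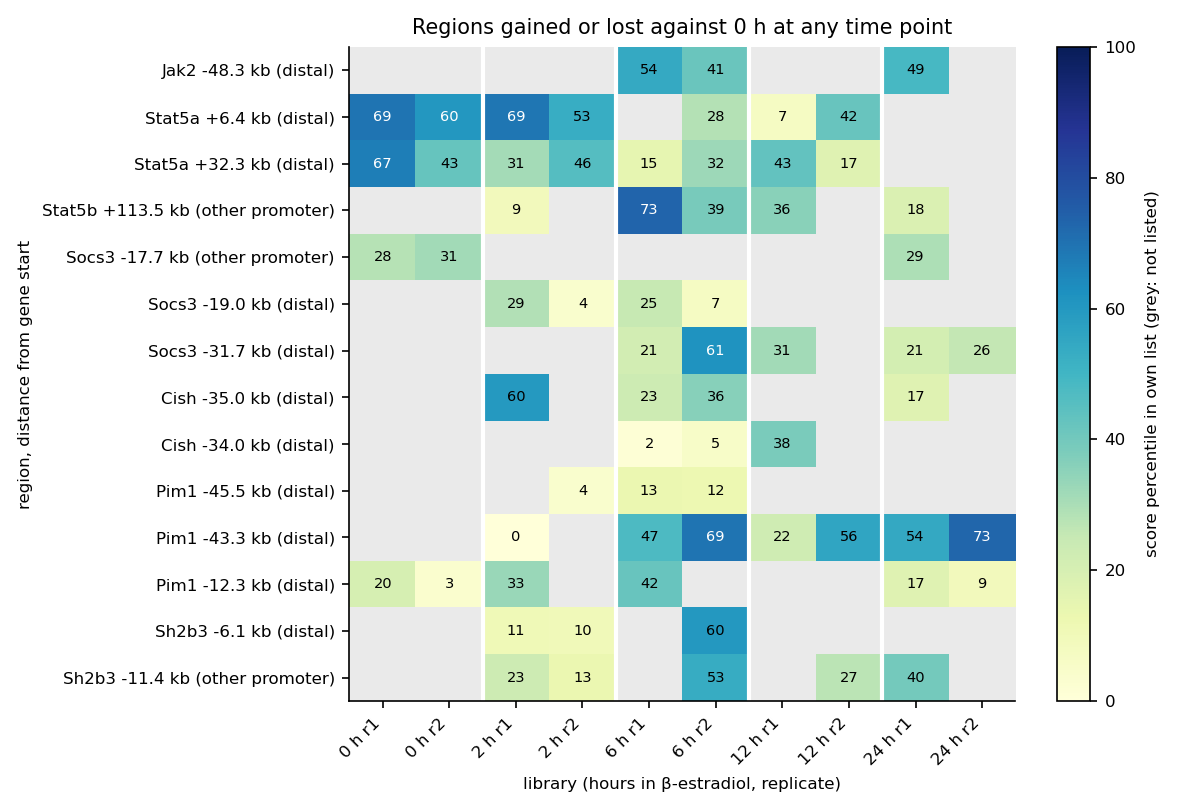
The 14 regions gained or lost against 0 h at any time point (rows) in the 10 libraries (columns, hours and replicate). Colour and numbers give the score percentile in the library's own list, and grey marks libraries that did not list the region. Pim1 -43.3 kb is grey at 0 h, filled in 1 library of 2 h and in both from 6 h, and both Stat5a regions are filled at 0 and 2 h and grey at 24 h.

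The number of summits in each window was compared between 0 and 2 h (4 libraries) and 12 and 24 h (4 libraries) by an exact two-sided permutation test with 70 splits, for which the smallest p is 0.0286. None of the 9 genes reached p under 0.05, a level reached with a higher late count by 0.119% and with a lower late count by 0.324% of 21938 protein-coding genes. The Stat5a window held 5, 3, 5 and 5 summits at 0 and 2 h and 3, 3, 3 and 1 at 12 and 24 h. Its means were 4.50 ± 1.0 and 2.50 ± 1.0 (SD, n = 4 each; exact permutation p = 0.114), and the groups met at 3 summits. Without 0 h replicate 2, the early library with 3 summits, the difference was -2.50 with an exact permutation p of 0.0286, the smallest that test allows. That p therefore rests on leaving out the library where the groups met. In lists of equal size, with all libraries kept, the Stat5a difference was -1.25 (exact permutation p = 0.114).

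The overlapping Stat5b window had means of 6.50 ± 1.0 and 4.50 ± 1.91 (SD, n = 4 each; exact permutation p = 0.171). Within each replicate number its late counts (6 and 6, 4 and 2) were below its early counts (7 and 7, 5 and 7). With numbers kept together the exact permutation p was 0.0556, the smallest that test allows. Because that smallest p is above the level used for the windows, the test could call no window. Nothing is concluded from this p, and the share of all genes that reach it is not given. In lists of equal size the Stat5b difference was -1.0 (exact permutation p = 0.429, numbers not kept together). For the other 7 genes the exact permutation p lay between 0.629 and 1. The Epor window was the steadiest, with 6 or 7 summits in every library, and at 24 h those of Jak2, Cish and Socs3 held 6 and 2, 7 and 3, and 6 and 2 summits in replicates 1 and 2, the lower value coming from the shortest list. The Cish replicates were as far apart at 12 h, with 8 and 4.

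**Figure D5:**
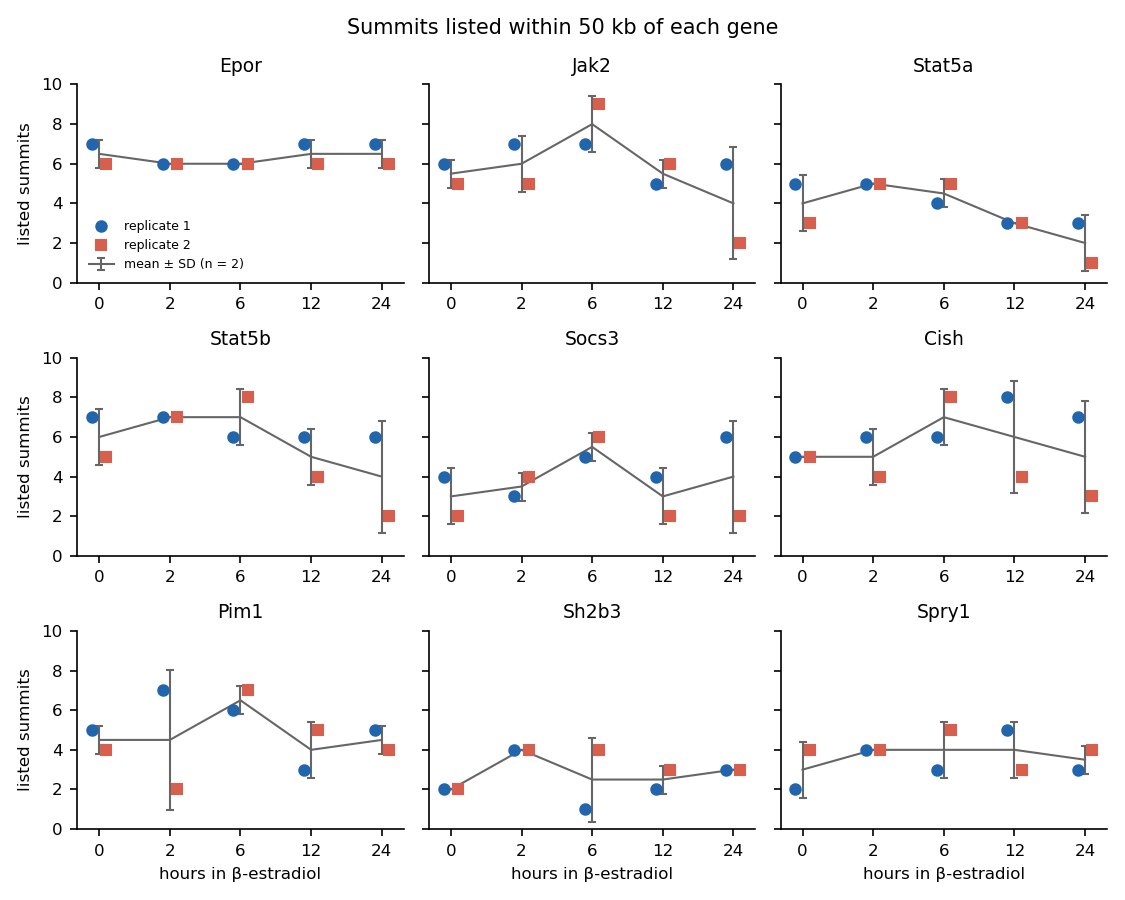
Number of summits listed within 50 kb of each gene span (y axis) against hours in β-estradiol (x axis, evenly spaced), with replicates 1 and 2 as circles and squares and the mean ± SD of the 2 as grey lines. Stat5a, Stat5b and Jak2 have their lowest means at 24 h (2.0, 4.0 and 4.0), and Epor stays at 6 or 7.

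Sequence features of the 69 regions were read in the central 300 bases on both strands. GATA-type matches (AGATAA or TGATAA) were in 22 of 42 distal regions (52.4%), next to 46.3% of all distal regions, and in 2 of the 11 promoter regions (18.2%), Cish -0.3 kb and Sh2b3 -0.3 kb, next to 9.04% of all promoter regions. STAT-type matches (TTCNNNGAA) were in 10 of the 69 regions (14.5%) and in 8.60% of all regions. Only Cish +0.6 kb held more than 1, the 4 matches printed above. The letters CCACACCC, an erythroid Krüppel-like factor site, were in 4 of the 69 regions (5.80%) and in 4.71% of all regions.

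In the RefSeq promoter windows of the same build, from 250 bases before to 50 after a start, STAT-type matches were in 2 of the 12 windows of the 9 genes, next to 8.30% of 32851 windows. These were the windows of Cish, with 2 matches, and of Socs3, with 1. GATA-type matches were in 1 of the 12 windows (8.33%), that of Epor, next to 18.6% of all windows. Among the 14 regions gained or lost, 8 held a GATA-type match, including both Stat5a regions lost at 24 h and Pim1 -43.3 kb. This was 57.1%, next to 48.6% of all regions gained or lost at some time point, and among distal ones 7 of 11 (63.6%) next to 56.7%. A match is a description of the letters and shows no binding.

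For 48 other genes of the pathway and its targets, a listed summit lay within 1 kb of a start in all 10 libraries for 22 genes (45.8%), in some for 22, and in none for 4 (Lyn, Btk, Spry2 and Bcl6). Of all protein-coding genes with an annotated start, 25.9% were listed in all 10 and 56.0% in none. By the same summit count, 6 of the 9 genes described above were listed in all 10 libraries, with Epor in 9.

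At 24 h against 0 h, Inpp5d, which encodes a lipid phosphatase of blood cells, and Pik3cd, a phosphoinositide 3-kinase subunit, had a promoter region gained, and Podxl, a sialomucin, had one lost. Among all protein-coding genes with a start, 0.559% had a promoter region gained and 0.573% had one lost. These shares count the 56.0% of genes listed in no library, which could be neither gained nor lost. Of the 48 pathway genes 8.33% were listed in none, so the shares are not over like sets. Summits at the Inpp5d start were listed in no 0 h library, in both libraries of 2, 6 and 24 h and in 1 of 12 h. Pik3cd was listed in no 0 h library and in all 8 later ones, and Podxl in both 0 h libraries, 1 of 6 h and 1 of 12 h. The calls of these genes in lists of equal size and the share of all genes with the same courses are not given. The promoter regions whose ranks over the 10 libraries were most like that of Epor, among 4942 promoter regions in all libraries, were those of BC052040 (Pearson r = 0.937), Eml5 (0.931) and Zbtb41 (0.90), given as a description over 10 points that share depth and list length.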

How the data were processed

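The authors tagmented about 50000 cells per library, sequenced on a NextSeq500, trimmed adaptors, kept reads with a unique position in mm10 and called peaks per library with MACS without a fragment model. The submitters' processing notes give Bowtie 1.0.0, Picard and MACS2 and the peak names say bowtie1, whereas the methods name Bowtie2. No Tn5 shift of reads is stated, so a summit can be off by a few bases or more. The deposited score is the −log10 q-value in the library's own list. Depth is unknown, and intervals that need it were left out.

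Only chromosomes 1 to 19, X and Y entered, which dropped 4 or 5 peaks per list. GENCODE M21 and RefSeq on GRCm38.p6, the same build as mm10, gave gene spans, 41438 coding starts of 21851 genes, and sequences. Groups and replicate numbers came from the sample titles. Ranks were converted to normal scores and fitted with limma 3.58.1 (Benjamini-Hochberg, threshold 0.05), which was tested on simulated data. Other steps used Python 3.11.15, scipy 1.17.1 and pandas 2.3.3. The labels share replicate numbers across time points, and rank deviations from the group means of same-numbered libraries correlated at 0.177 to 0.359 (median 0.272) over the 10 pairs of time points, so the number was also fitted as a block. Named regions were all promoter regions of the 9 genes and all regions gained, lost or called, and named pathway genes were those with a promoter region gained, lost or called at 24 h. The genes and lists were chosen with earlier results of these data known.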

Additional observations from a re-analysis of the deposited data

How the results depend on the processing

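Counts of gained and lost regions moved with list length, score and distance settings. With lists of equal size, gains were 0, 2, 0 and 1 at 2, 6, 12 and 24 h and losses were 2 at 6 h and 0 at 12 h. Among scores of at least 3, losses were 2 at 2 h, 1 at 12 h and 4 at 24 h, and 2 regions were gained at 12 h. With summits extended by 500 bp, 1 region was gained at 2 h and 5 at 6 h, and losses were 0 at 2 h and 0 at 6 h. With 25 kb on each side, gains were 1 at 6 h, 0 at 12 h and 0 at 24 h, and with 100 kb 5 were gained at 2 h and 4 lost at 24 h. The cause of these moves was not tested, except that the distance settings change how many regions are counted.

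Leaving out 1 library lets a call rest on a single library of its time point, so it gave counts that were not lower: 5 to 9 gained and 2 to 5 lost at 2 h, 8 to 16 and 2 to 4 at 6 h, 3 to 7 and 3 to 8 at 12 h, and 2 to 9 and 3 to 7 at 24 h. At 6 h the 16 came without replicate 1 and the 8 without replicate 2. The differences in summits per window (late minus early), none of which passed the test, turned direction for Socs3 with 25 kb (-0.75), for Pim1 with equal lists (0.75), scores of at least 3 (0.25) and 100 kb (0.75), for Sh2b3 with equal lists (0.50), and for Spry1 with equal lists (-0.25) and 100 kb (-1.0). Leaving out 1 library gave ranges that crossed 0 for Cish (-0.33 to 1.33), Pim1 (-1.08 to 0.58), Sh2b3 (-0.58 to 0.083), Socs3 (-0.58 to 0.75) and Spry1 (-0.25 to 0.50), stayed at -2.50 to -1.50 for Stat5a, and brought 0 to 1 windows to p under 0.05.

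The limma rank differences of the promoter regions crossed 0 when 1 library was left out for Pim1 (-0.11 to 0.60), Sh2b3 (-0.65 to 0.33), Socs3 (-0.094 to 0.72), Spry1 (-0.54 to 0.27) and Stat5a (-0.012 to 0.41). No region was called in either contrast under any of the alternatives run (0 of all regions, also with the log2 score, with regions in at least 8 libraries and without each library in turn). With the replicate block, 0 regions were called, the smallest limma adjusted p was 0.285 and 0.195 in the 2 contrasts, and the block changed no limma call. The permutation test of window counts within replicate numbers cannot go below p = 0.0556, so it could call no window and says nothing about stability. With promoters within 500 bp the counts of promoter regions stayed within 1.5 times. At that distance, however, Epor +1.0 kb was not a promoter region. Its summits lay 853 to 1152 bp from the only coding start of Epor that was used. Depth was unknown, which limits what a missing peak can show.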
